A study of Mus musculus with 36 samples.

Results

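Organoids grown from mouse jejunum crypts in the medium of senescent fibroblasts together with an antibody against Ptk7 were compared with organoids in complete culture media. The comparison took the 12 of 36 libraries whose treatment labels name these 2 conditions, 6 of SCM + anti-Ptk7 and 6 of complete media + IgG. SCM is conditioned medium of mouse embryonic fibroblasts that had been made senescent, mixed with the organoid medium, and QCM is the same preparation from quiescent fibroblasts. Complete media is the commercial IntestiCult medium, and IgG is the control antibody that every culture without anti-Ptk7 received. The groups SCM + IgG and QCM + IgG (6 libraries each) were used to sort the genes of this comparison and, like the other libraries of the series, entered the fit that gave its spread. All crypts came from C57BL/6 mice, and the cultures are epithelium without the surrounding stroma. The crypts came from 6 mice, and whether the same replicate number is the same mouse in each condition is not given in the sources used here. The values below come from a fit without pairing, and blocked values, from a fit with a term for the replicate number, are given where they changed the call of a gene described here. Complete media was analysed here with IgG alone, not with anti-Ptk7, so for a gene that changed with the antibody the effect of the antibody alone and its effect on the response to SCM cannot be told apart.

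Intestinal organoids hold crypt stem cells and the absorptive and secretory cells that descend from them, and they respond to soluble factors in their medium. Senescent cells release a mixture of cytokines, growth factors, proteases and shed receptor fragments, called the senescence-associated secretory phenotype. Ptk7 is a transmembrane pseudokinase of the Wnt and planar cell polarity pathways whose extracellular part can be shed, and the antibody used binds its N-terminal domain. 

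Each of the 12 libraries held between 9581589 and 14742230 counts. The 10 epithelial identity genes fixed as a check (such as Epcam, Cdh1 and Vil1) summed to 12252.4 to 16567.1 CPM in SCM + anti-Ptk7 and to 9889.3 to 12399.4 CPM in complete media. In these marker sums CPM are counts scaled to the library total alone, and elsewhere they are scaled to the library size after TMM normalization. The 10 fibroblast markers summed to 4.27 to 10.8 CPM and 4.07 to 7.93 CPM respectively, with Col1a1, Col3a1, Dcn, Pdgfra, Thy1 and Postn without a count in complete media, and the 10 immune and endothelial markers to at most 4.32 CPM in these 12 libraries. Mitochondrial genes took 0.606% to 0.791% of the counts in SCM + anti-Ptk7 and 0.340% to 0.645% in complete media; the part of this difference in the results was not tested. PC1 of the log2 CPM carried 23.9% of the variance and placed the SCM + anti-Ptk7 libraries between −59.0 and −7.00 and the complete media libraries between 11.2 and 48.2, without overlap. On PC2 (13.2%), SCM + anti-Ptk7 replicate 4 lay at −79.2 and the other 5 between 2.31 and 32.5, so counts of called genes are also given without it.

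**Figure D1:**
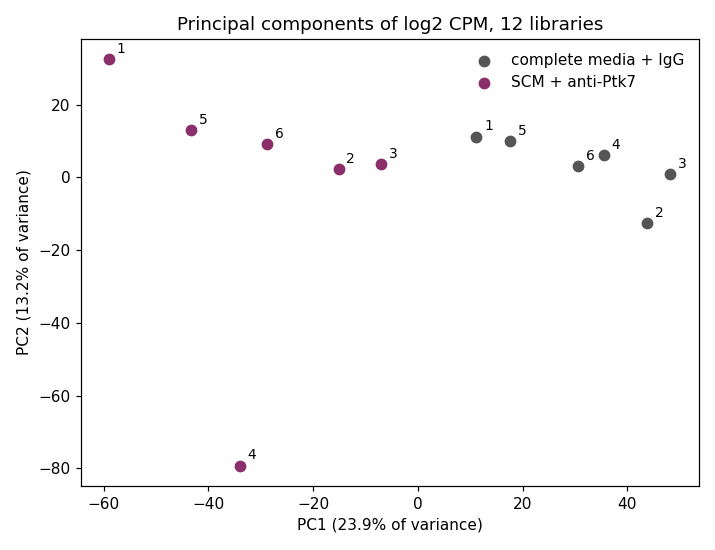
Position of the 12 libraries on the first principal components of log2 CPM over the 15497 genes tested; the numbers are replicate numbers. The groups separate on PC1 (−59.0 to −7.00 against 11.2 to 48.2), and SCM + anti-Ptk7 replicate 4 lies apart on PC2 at −79.2.

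Of 15497 genes tested with edgeR (quasi-likelihood test on counts), 700 were higher in SCM + anti-Ptk7 than in complete media and 208 lower, called where the Benjamini-Hochberg adjusted p lay under 0.05 and levels differed by more than 1.5 times. These are 4.52% and 1.34% of the genes tested. Without SCM + anti-Ptk7 replicate 4 the counts were 652 and 197, and in a fit of the compared groups alone 596 and 183. The libraries of the 2 groups did not overlap in 314 of the higher and 102 of the lower genes, against 980 of all genes tested (6.32%). With voom and limma on quantile-normalized values, the method of the study, 453 genes were higher and 310 lower, so the balance between higher and lower genes moved with this method. The median log2 fold change over all genes tested was 0.0157 under edgeR and −0.0387 under quantile normalization.

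For comparison, SCM + IgG against the same complete media libraries gave 768 higher (4.96%) and 174 lower genes (1.12%), and anti-Ptk7 against IgG within SCM gave 90 higher (0.581%) and 100 lower (0.645%). These contrasts share libraries, and they were used to sort the 908 genes as a description. With the replicate number as a block, 852 and 253 genes were called against complete media and 163 and 236 within SCM, so that the calls on the antibody depend on whether the numbers pair the libraries. A gene was counted as kept if it was also called in SCM + IgG in the same direction. It was counted as new if it was not called in SCM + IgG and the antibody itself moved it in that direction within SCM. Of the 700 higher genes, 402 (57.4%) were kept, 34 (4.86%) were new and 264 (37.7%) were not sorted, since neither of the other contrasts called them. Of the 208 lower genes, 67 (32.2%) were kept, 30 (14.4%) were new and 110 (52.9%) were not sorted. The remaining one was Lgals1, which encodes galectin-1. It was chosen after its values were seen, and in SCM + anti-Ptk7 it was lower than in complete media (−0.68 ± 0.19, edgeR adjusted p = 0.0163), while in SCM + IgG it was 0.93 above complete media. Within SCM, Lgals1 differed between antibody and IgG by −1.62 ± 0.19 (edgeR adjusted p = 9.29e-06).

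Without SCM + anti-Ptk7 replicate 4, 381 higher and 63 lower genes were kept, and 26 and 29 were new. Leaving out SCM + IgG replicate 1 alone gave 25 new higher genes, the fewest of the fits that left out 1 library. With SCM + anti-Ptk7 replicate 4 and SCM + IgG replicate 1 left out together, a setting chosen after seeing the data, 351 higher and 55 lower genes were kept, and 20 higher and 21 lower genes were new. Of the 34 new higher genes, 15 stayed in the class. The kept higher genes had a median log2 fold change of 1.32 in SCM + anti-Ptk7 and 1.37 in SCM + IgG, and a median difference between antibody and IgG of −0.05. Kept genes were chosen for calls in both contrasts, so similar medians and a small difference follow in part from the sorting. QCM alone held the same genes at a median of 0.61 above complete media. Against QCM, SCM + anti-Ptk7 gave 297 higher (1.92%) and 176 lower genes (1.14%), and 205 of the 700 higher and 77 of the 208 lower genes were among them. Of the kept genes, 119 higher and 19 lower ones also differed from QCM in the same direction. For the remaining kept genes, a difference from the medium of quiescent fibroblasts was not called.

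Ptk7, the target of the antibody, had a transcript level of 9.15, 11.3 and 14.1 CPM (lowest, median and highest library) in complete media and 4.94, 9.75 and 16.8 CPM in SCM + anti-Ptk7. The ranges overlapped, and the log2 fold change of −0.18 ± 0.26 (SE) did not pass the test (edgeR adjusted p = 0.724). The antibody binds the protein, so this transcript level does not check its action. None of the 17 tested genes of the noncanonical Wnt and planar polarity list was called in either direction, and their median log2 fold change was 0.08. Within SCM, Vangl1 of this list differed by −0.61 ± 0.20 (edgeR adjusted p = 0.0905), which passed when blocked (−0.63 ± 0.15, edgeR adjusted p = 0.00969).

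Among the largest rises that remained under the antibody were Lama3, Mycn, Clu and Pmepa1. Clu (ENSMUSG00000022037, chromosome 14, 65968483 to 65981547, GRCm38) encodes the secreted chaperone clusterin, a marker of intestinal cells in regeneration. Its lowest, median and highest levels were 19.8, 41.9 and 101.1 CPM in complete media and 288.8, 558.3 and 1164.7 CPM in SCM + anti-Ptk7. Every library of the second group was above every library of the first. The log2 fold change was 3.61 ± 0.45 (SE, n = 6 and 6), a 12.2-fold rise (edgeR adjusted p = 4.34e-07). In SCM + IgG Clu reached a median of 1093.3 CPM, and the difference between antibody and IgG of −0.96 ± 0.40 did not pass the test without pairing (edgeR adjusted p = 0.202). Clu was lower with the antibody in 6 of 6 same-numbered pairs, and in the blocked fit the difference was −0.99 ± 0.09 (edgeR adjusted p = 1.84e-08).

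Mycn (ENSMUSG00000037169, chromosome 12, 12936093 to 12941914), a transcription factor of the Myc family, went from 0.0, 0.956 and 1.79 CPM to 10.6, 14.4 and 22.1 CPM. No library of the groups overlapped, and the log2 fold change was 3.88 ± 0.39 (edgeR adjusted p = 6.25e-09). Its level in SCM + IgG was 7.87 to 10.2 CPM, below every library with the antibody, but the difference of 0.81 ± 0.32 within SCM was not called (edgeR adjusted p = 0.173).

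Pmepa1 (chromosome 2, 173224458 to 173276533), a TGF-beta target that dampens Smad signalling, went from 6.66, 10.7 and 15.2 CPM to 54.1, 74.8 and 207.8 CPM, a log2 fold change of 3.21 ± 0.39 (edgeR adjusted p = 3.1e-07). Fcgrt, the heavy chain of the neonatal Fc receptor that carries IgG across epithelia, went from 2.59, 3.45 and 4.32 CPM to 22.4, 26.8 and 38.2 CPM, with a log2 fold change of 3.01 ± 0.20 (edgeR adjusted p = 2.03e-13). Both controls and treated cultures received an immunoglobulin, and Fcgrt was also 2.64 above complete media in SCM + IgG on the log2 scale. In SCM with either antibody, both genes were thus far outside the range of the complete media libraries.

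The other genes among the 10 largest rises were Lama3, Vill (a villin-like protein), P2rx2 (an ATP-gated channel), Gkn3 (a gastrokine), Rassf10 and Ccdc3, with log2 fold changes between 2.84 and 3.89. These were taken from the genes whose libraries did not overlap between the groups and whose mean log2 CPM was over 1. All 10 were sorted as kept. Gkn3 stood at 1.85 CPM (median) in complete media, 8.25 in SCM + IgG and 13.7 in SCM + anti-Ptk7, and within SCM it was called with the block (0.81 ± 0.21, edgeR adjusted p = 0.0136), and Rassf10 at 1.02, 4.03 and 7.69 CPM.

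**Figure D2:**
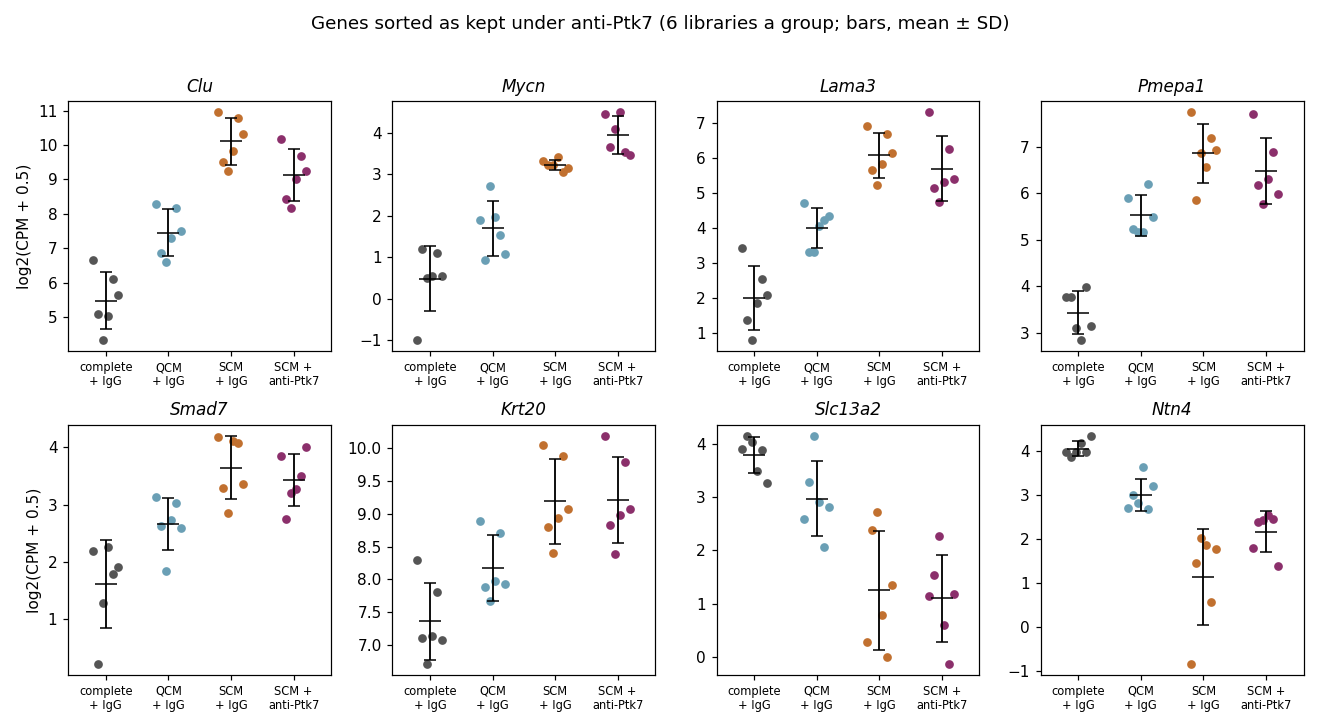
Levels of 8 kept genes as log2(CPM + 0.5) in each of 6 libraries of 4 groups (points), with mean and SD (bars). For the 6 rising genes the SCM + anti-Ptk7 libraries lie above all complete media libraries, and for Slc13a2 and Ntn4 below them; the QCM means lie between those of complete media and SCM.

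Genes of the cell-matrix adhesion list moved in both directions. Lama3 and Lamb3 encode laminin chains, which help anchor epithelial cells to their basement membrane. Lama3 (ENSMUSG00000024421) went from 1.25, 3.46 and 10.2 CPM to 26.3, 40.4 and 157.2 CPM, a log2 fold change of 3.89 ± 0.56 (edgeR adjusted p = 7.34e-06). Lamb3 went from 126.9, 149.0 and 167.2 CPM to 207.6, 238.4 and 303.5 CPM, again without overlap, with a log2 fold change of 0.73 ± 0.20 (edgeR adjusted p = 0.0113). Itgb6, an integrin subunit of injured epithelium, rose by 1.12 ± 0.28 on the log2 scale (edgeR adjusted p = 0.00569).

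Ntn4, the laminin-related netrin-4, moved the other way. It fell from 14.2, 15.3 and 19.8 CPM to 2.14, 4.82 and 5.33 CPM, a log2 fold change of −1.95 ± 0.38 (edgeR adjusted p = 0.000598). In total, 4 of the 17 tested members of the cell-matrix adhesion list were higher, 1 was lower (4 and 1 without replicate 4) and all 5 were kept, where SCM + IgG had 9 higher. The median log2 fold change of the list was 0.51, against 0.02 over all genes tested. Thbs1, a matrix glycoprotein, differed between antibody and IgG (−1.09 ± 0.29, edgeR adjusted p = 0.0325) and was at 27.8 to 43.4 CPM with the antibody against 12.8 to 33.5 CPM in complete media, a difference that did not pass (edgeR adjusted p = 0.094) and passed with the replicate block (0.77 ± 0.27, edgeR adjusted p = 0.0496). With the block, 6 genes of the list were higher than in complete media and 4 were lower with the antibody within SCM.

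Genes of the TGF-beta and BMP list were higher with either antibody. Of 11 tested genes of this list, 6 were higher, none was lower, and all 6 were kept, also without replicate 4. The list's median log2 fold change was 0.89 in SCM + anti-Ptk7, 0.69 in SCM + IgG and 0.60 in QCM + IgG, each against complete media. Of the 6 genes, Tgfb1, Skil and Id1 were also higher with the antibody than in QCM, and Smad6, Smad7 and Bambi were not called against QCM. The ligand gene Tgfb1 went from 0.0940, 1.21 and 1.88 CPM to 2.35, 4.61 and 5.95 CPM (log2 fold change 1.86 ± 0.32, edgeR adjusted p = 0.000108). The inhibitory Smads Smad6 and Smad7 rose by 1.82 ± 0.39 and 1.90 ± 0.35. Skil, a repressor of Smad-driven transcription, went from 11.7, 13.4 and 20.4 CPM to 44.5, 64.8 and 79.8 CPM, a log2 fold change of 2.13 ± 0.19 (edgeR adjusted p = 5.31e-10). Id1, a direct target of BMP receptors, went from 8.02, 8.6 and 14.1 CPM to 22.3, 30.3 and 46.3 CPM, with 1.77 ± 0.16 (edgeR adjusted p = 1.01e-09). Bambi, a decoy receptor, rose by 0.89 ± 0.23, but it stayed in the kept class in 10 of 18 fits that left out 1 library, and its log2 fold change in SCM + IgG was 0.69 (edgeR adjusted p = 0.0458). For none of the 6 was a difference between antibody and IgG called, and these differences lay between −0.31 and 0.31.

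Called genes of the YAP/TAZ target, fetal marker and keratin lists were all higher, and 1, 1 and 3 members of these lists differed between antibody and IgG within SCM. With the replicate number as a block, 5 YAP/TAZ targets, 7 fetal genes and 8 keratin and envelope genes were lower with the antibody within SCM and 1, Tgm2, was higher, and against complete media 8, 7 and 8 were higher and 0, 1 and 0 lower. YAP and TAZ are transcriptional coactivators that respond to mechanical and Wnt signals through TEAD factors. Of 18 tested YAP/TAZ targets, 8 were higher in SCM + anti-Ptk7 (7 without replicate 4) and none lower, of which 7 were kept, and in SCM + IgG 10 were higher. F3, the tissue factor gene, went from 27.9, 68.0 and 137.3 CPM to 155.8, 331.7 and 722.2 CPM, a log2 fold change of 2.28 ± 0.43 (edgeR adjusted p = 0.000358). Amotl1 and Nt5e had log2 fold changes of 2.44 ± 0.59 and 3.42 ± 0.86 at low levels (medians of 0.735 and 0.157 CPM in complete media), their libraries overlapped between the groups, Nt5e was not called with voom and limma (adjusted p = 0.138 on quantile-normalized values), and it stayed in the kept class in 13 of 18 fits that left out 1 library.

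Ccn2 encodes a matricellular protein and stood at 1.75, 8.57 and 22.2 CPM in complete media, 17.9, 53.5 and 69.7 CPM in SCM + IgG and 3.49, 7.46 and 16.1 CPM in SCM + anti-Ptk7. The groups with complete media and with the antibody overlapped fully (log2 fold change −0.23 ± 0.52, edgeR adjusted p = 0.839). The difference between antibody and IgG of −2.50 ± 0.52 was the only one called within this list without pairing (edgeR adjusted p = 0.00554), and with the block Ccn1, Ajuba, Amotl2 and Ptpn14 were lower as well. Their differences were −0.81, −0.68, −0.82 and −1.71 without pairing (edgeR adjusted p between 0.0535 and 0.247) and −0.81, −0.68, −0.84 and −2.48 when blocked (edgeR adjusted p between 0.000843 and 0.0462).

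Of 13 tested fetal and revival genes, Clu, Ctse and Anxa8 were higher in SCM + anti-Ptk7 and none was lower, also without replicate 4, while 11 were higher in SCM + IgG. Ctse, the protease cathepsin E, was at 0.0 CPM in the median complete media library (highest 1.09 CPM) and at 2.13, 8.59 and 17.5 CPM in SCM + anti-Ptk7. Its call was lost with voom and limma, on quantile-normalized values (adjusted p = 0.158) and after TMM (adjusted p = 0.211). Anxa8 went from 2.67, 5.58 and 17.4 CPM to 16.7, 37.7 and 74.3 CPM (log2 fold change 2.37 ± 0.47, edgeR adjusted p = 0.000727), and with the block it was lower with the antibody within SCM (−0.79 ± 0.15, edgeR adjusted p = 0.000925). Ly6a, the fetal and injury marker Sca-1, had 56.1 to 227.8 CPM in complete media, 166.6 to 487.7 CPM in SCM + IgG and 40.2 to 140.1 CPM in SCM + anti-Ptk7. Against complete media the log2 fold change of −0.73 ± 0.29 did not pass (edgeR adjusted p = 0.0981), but did without SCM + anti-Ptk7 replicate 1 (−0.99, adjusted p = 0.0270) or complete media replicate 3 (−0.89, adjusted p = 0.0423). Ly6a was lower than in complete media in 6 of 6 same-numbered pairs and was called with the block (−0.72 ± 0.15, edgeR adjusted p = 0.000603). The antibody differed from IgG by −1.73 ± 0.30 (edgeR adjusted p = 0.000967).

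Among 15 tested keratins and cornified envelope genes, 5 were higher in SCM + anti-Ptk7 (4 without replicate 4) and 13 in SCM + IgG. Krt20, a keratin of differentiated villus cells, rose from 105.0, 139.4 and 315.2 CPM to 335.4, 522.0 and 1158.3 CPM (log2 fold change 1.87 ± 0.39, edgeR adjusted p = 0.00117), with a difference between antibody and IgG of 0.03 ± 0.38. Krt80 and Lor (loricrin) were at medians of 1.45 and 2.97 CPM with the antibody, within the range of complete media, and both differed from SCM + IgG (−1.75 ± 0.41 and −1.64 ± 0.42). Krt8 and Krt18 rose by 0.74 and 0.68 on the log2 scale, with overlapping libraries, and lost their calls in 5 and 13 of 18 fits that left out 1 library, including, for Krt18, the fit without replicate 4 of SCM + anti-Ptk7 and those without replicate 2, 4, 5 or 6 of SCM + IgG. Sprr2a3 rose by 2.18 ± 0.31 and with the block was lower with the antibody within SCM (−0.79 ± 0.11, edgeR adjusted p = 2.28e-05), but the Sprr2a copies are nearly identical and their reads may have been split by the counting.

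**Figure D3:**
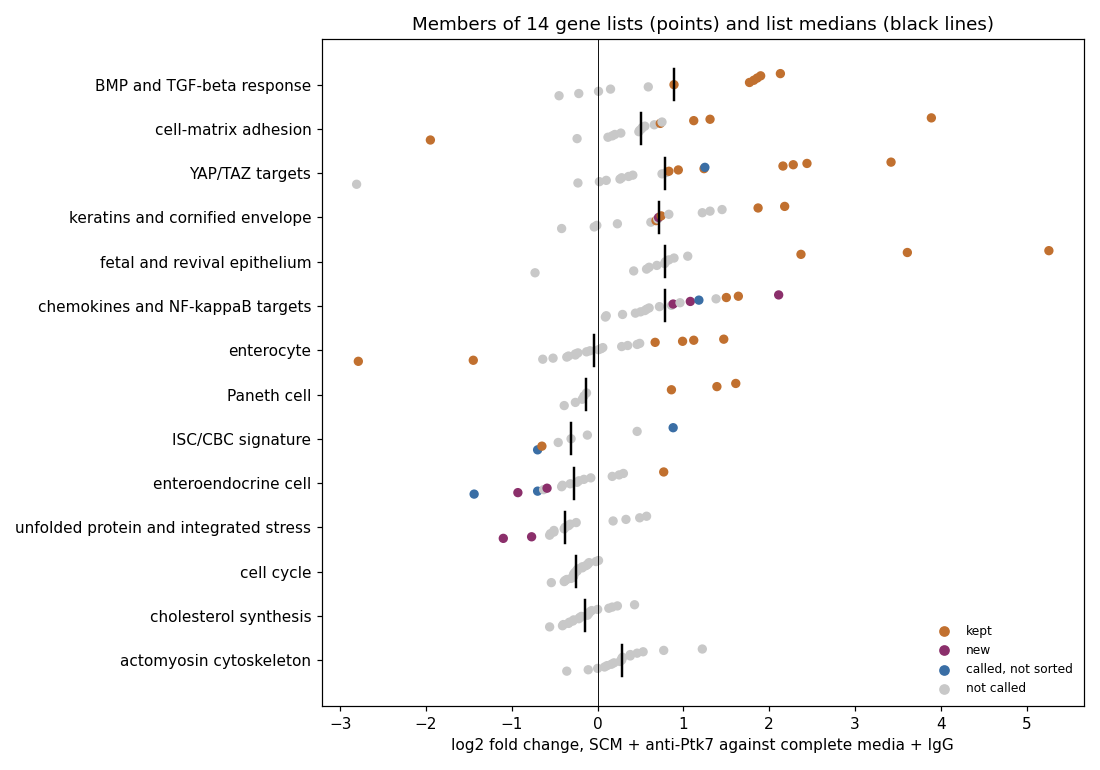
Log2 fold change of each tested member of 14 gene lists in SCM + anti-Ptk7 against complete media, coloured by class, with the list median as a black line. All called members of the TGF-beta and BMP list are kept and higher, the called members of the unfolded protein list are new and lower, and no member of the cell cycle, cholesterol synthesis and actomyosin lists was called.

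Enterocyte genes moved in both directions. Of 22 tested enterocyte genes, 4 were higher and 2 lower (4 and 2 without replicate 4), and all 6 were kept. Slc13a2, a sodium-coupled citrate and succinate carrier of the brush border, showed the largest fall by the naming rule. It went from 9.16, 14.4 and 17.1 CPM to 0.419, 1.75 and 4.34 CPM, without overlap, with a log2 fold change of −2.79 ± 0.49 (edgeR adjusted p = 0.000124). Anpep, the brush border aminopeptidase N, went from 111.9, 118.4 and 146.8 CPM to 32.8, 42.1 and 62.8 CPM (−1.45 ± 0.25, edgeR adjusted p = 0.000116), and its difference between antibody and IgG was 0.02 ± 0.25. The lipid transport genes Fabp1, Apoa4 and Apob rose instead, by 1.47 ± 0.15, 1.12 ± 0.17 and 0.99 ± 0.19. Alpi, intestinal alkaline phosphatase, was higher than in complete media by 0.67 ± 0.16 but lower than in SCM + IgG by 0.59 ± 0.16 on the log2 scale (edgeR adjusted p = 0.0403).

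Under the same limits on overlap and level, other genes among the 10 largest falls were Gm12888 (−2.31 ± 0.41), the cytochrome P450 gene Cyp4b1, Hspg2, Kcnh3, Sycn, Ace, Mylk3 and Slc5a4b. Cyp4b1 went from 23.8, 34.4 and 47.6 CPM to 5.13, 8.4 and 11.5 CPM (−2.06 ± 0.19, edgeR adjusted p = 5.76e-10). Without pairing it was the only kept lower gene that also fell within SCM with the antibody (−0.68 ± 0.18, edgeR adjusted p = 0.0355). Ace, the angiotensin-converting enzyme of the brush border, went from 9.82, 16.6 and 19.2 CPM to 2.48, 6.07 and 6.62 CPM (−1.57 ± 0.25, edgeR adjusted p = 4.23e-05). The perlecan gene Hspg2 (−1.74 ± 0.45), the secretory granule gene Sycn (−1.63 ± 0.40) and the channel gene Kcnh3 (−1.70 ± 0.57) were not sorted, since neither other contrast called them. Kcnh3 lay close to the threshold (edgeR adjusted p = 0.0449) and lost its call without any of replicates 1, 4, 5 and 6 of SCM + anti-Ptk7 or 1, 2, 3, 4 and 6 of complete media (highest adjusted p 0.0906). Of 16 tested genes of the circadian clock and its output 3 were lower and none higher (2 lower and 1 higher without replicate 4), led by Usp2 (−1.47 ± 0.31) and Ciart (−1.17 ± 0.21), both kept.

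Of 8 tested Paneth cell genes 3 were higher (3 without replicate 4) and all 3 were kept, while the other 5 had log2 fold changes below 0 and the median of the list was −0.14. Ang4, an antimicrobial ribonuclease, went from 43.9, 49.1 and 56.3 CPM to 80.5, 138.2 and 155.8 CPM (1.39 ± 0.14, edgeR adjusted p = 3.87e-09), and Mmp7 and Habp2 rose by 0.86 ± 0.16 and 1.61 ± 0.30. The lysozyme gene Lyz1 (−0.39 ± 0.12, edgeR adjusted p = 0.0339) was under the fold threshold, and the defensin genes Defa17, Defa24 and Defa26 and the lectin gene Itln1 lay between −0.26 and −0.13 and did not pass. Against QCM, Ang4 and Habp2 were higher and Lyz1 was lower (−0.60 ± 0.12, edgeR adjusted p = 0.00187). Of 7 genes of the crypt stem cell signature, Ascl2 was higher and Lgr5 and Smoc2 were lower (1 and 2 genes without replicate 4). Ascl2, a transcription factor of crypt base stem cells, went from 19.1, 27.4 and 36.2 CPM to 42.3, 51.1 and 59.1 CPM (0.88 ± 0.13, edgeR adjusted p = 1.41e-05). Lgr5, the R-spondin receptor that marks the same cells, went from 138.4, 204.1 and 291.8 CPM to 85.8, 133.5 and 154.2 CPM (−0.70 ± 0.22, edgeR adjusted p = 0.0318), with overlap, and lost its call without SCM + anti-Ptk7 replicate 5 or 6 or complete media replicate 2 or 3 (log2 fold changes of −0.66 to −0.58). Smoc2, a matricellular gene of the crypt base, fell by 0.65 ± 0.17 on the log2 scale, and without SCM + anti-Ptk7 replicate 1 its change of −0.58 was under the fold threshold. No gene of 22 in the cell cycle list and of 20 in the cholesterol synthesis list was called, with median log2 fold changes of −0.25 and −0.15. In bulk RNA, fewer cells of a type and less RNA per cell cannot be told apart. None of the 17 actomyosin genes was called with the antibody, where SCM + IgG had 6 higher, and no difference between antibody and IgG was called in this list. With the replicate block, 2 of them were higher than in complete media, and 2, Cnn2 and Flna, were lower with the antibody within SCM (−0.79 ± 0.09 and −0.72 ± 0.22, against −0.80 ± 0.31 and −0.65 ± 0.29 without pairing).

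Genes of the chemokine and NF-kappaB list were among the new rises. NF-kappaB is the transcription factor family of inflammatory signalling, and it induces its own inhibitors. Of 18 tested genes of this list, 6 were higher, also without replicate 4, and none was lower (8 and 0 in the blocked fit). Within SCM 4 were higher with the antibody and none lower, and in the blocked fit 5 were higher and 1, the chemokine gene Cxcl16, was lower (−0.86 ± 0.12, against −0.87 ± 0.31 without pairing). Ccl20, Nfkbiz and Nfkbia were new, Tnfaip3 and Tnf were kept, and Icam1, an adhesion molecule (log2 fold change 1.18), was not sorted. Ccl20 (ENSMUSG00000026166, chromosome 1, 83116766 to 83119167), a chemokine that attracts cells with the receptor CCR6, stood at 3.34, 6.87 and 13.1 CPM in complete media, at 10.4, 11.5 and 13.5 CPM in SCM + IgG and at 13.8, 36.2 and 41.9 CPM in SCM + anti-Ptk7. All libraries with the antibody were above all others of these 3 groups. The log2 fold change was 2.11 ± 0.28 against complete media (edgeR adjusted p = 1.45e-06) and 1.51 ± 0.27 against IgG in SCM (edgeR adjusted p = 0.00156), while SCM + IgG differed from complete media by 0.60, which did not pass (edgeR adjusted p = 0.163).

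Nfkbia, the inhibitor I-kappa-B-alpha, stood at 75.7, 116.1 and 145.4 CPM in complete media and at 176.3, 206.2 and 247.4 CPM in SCM + anti-Ptk7, again above every SCM + IgG library (101.3 to 150.4 CPM). Its log2 fold changes were 0.88 ± 0.13 and, within SCM, 0.68 ± 0.13 (edgeR adjusted p = 7.71e-06 and 0.00265). Nfkbiz, the atypical inhibitor I-kappa-B-zeta, went from 14.1, 21.2 and 29.5 CPM to 32.8, 45.6 and 58.4 CPM (1.08 ± 0.18, edgeR adjusted p = 9.79e-05), and within SCM its difference of 0.76 ± 0.18 (edgeR adjusted p = 0.0186) was lost without SCM + anti-Ptk7 replicate 2 or SCM + IgG replicate 6. Tnfaip3, which encodes the deubiquitinase A20, rose by 1.5 ± 0.22 and the cytokine gene Tnf by 1.64 ± 0.31. For these 2 the differences within SCM of 0.39 ± 0.21 and 0.72 ± 0.29 were not called (edgeR adjusted p = 0.343 and 0.191), and Tnf stayed kept in 10 of 18 fits that left out 1 library. Tnfaip2 was called within SCM (1.73 ± 0.42, edgeR adjusted p = 0.019) but not against complete media (0.86 ± 0.41, edgeR adjusted p = 0.17).

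Zc3h12a, the RNase regnase-1 that degrades inflammatory transcripts, belonged to no list. It was at 5.05, 7.63 and 10.4 CPM in complete media, 8.72, 11.7 and 16.5 CPM in SCM + IgG and 13.5, 21.2 and 25.1 CPM in SCM + anti-Ptk7. It was one of 9 kept higher genes that were higher still with the antibody within SCM. The others were Ccdc3, Tnfsf13b, Dio1, Tmem37, Mgam2-ps, Cyp3a25, Fgl2 and S100a1, with log2 differences between antibody and IgG of 0.63 to 1.76. These 9 were named after their values were seen, and Zc3h12a, Ccdc3 and Tnfsf13b stayed kept in 10, 14 and 16 of 18 fits that left out 1 library. Tnfsf13b, the B cell survival factor BAFF, went from medians of 1.63 CPM in complete media and 3.85 CPM in SCM + IgG to 9.94 CPM, with 1.46 ± 0.34 within SCM (edgeR adjusted p = 0.0153). Dio1, a deiodinase of thyroid hormone, went from 7.79 and 20.2 CPM to 46.2 CPM, and its libraries with the antibody (38.7 to 53.8 CPM) did not overlap those of SCM + IgG (14.4 to 27.9 CPM). The kept higher genes that were lower within SCM were Alpi and Grhl3, an epithelial barrier transcription factor (−1.03 ± 0.29, edgeR adjusted p = 0.0488).

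Ccdc3 and the antisense gene Gm26776 cover the same stretch of chromosome 2 on opposite strands (5137776 to 5230878 and 5137749 to 5230864). Ccdc3 was kept and rose by 2.84 ± 0.32, and Gm26776 was the new gene with the largest rise, 2.57 ± 0.38. Whether the counting used the strand is not given in the sources used here, so the reads of these 2 genes cannot be told apart.

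Vnn1, a pantetheinase, stood at 5.06, 6.16 and 9.29 CPM in complete media, 4.88, 5.99 and 8.46 CPM in SCM + IgG and 12.1, 16.4 and 20.1 CPM in SCM + anti-Ptk7. SCM + IgG differed from complete media by −0.01 on the log2 scale, and the antibody from both by 1.38 ± 0.20 and 1.39 ± 0.20 (edgeR adjusted p = 9.14e-06 and 0.00012). Hcn2, a cation channel subunit, went from 1.03, 2.04 and 3.19 CPM to 4.73, 6.18 and 10.1 CPM (1.75 ± 0.31, edgeR adjusted p = 0.000147). Hsd11b2, which inactivates glucocorticoids, went from 1.67, 3.17 and 6.15 CPM to 9.4, 10.3 and 15.3 CPM (1.58 ± 0.26, edgeR adjusted p = 6.43e-05). Tgm2 went from 47.5, 58.5 and 59.6 CPM to 75.4, 91.1 and 112.6 CPM (0.71 ± 0.14, edgeR adjusted p = 0.000934), and SCM + IgG lay at 38.5 to 67.8 CPM. All 4 were above both other groups in every library.

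**Figure D4:**
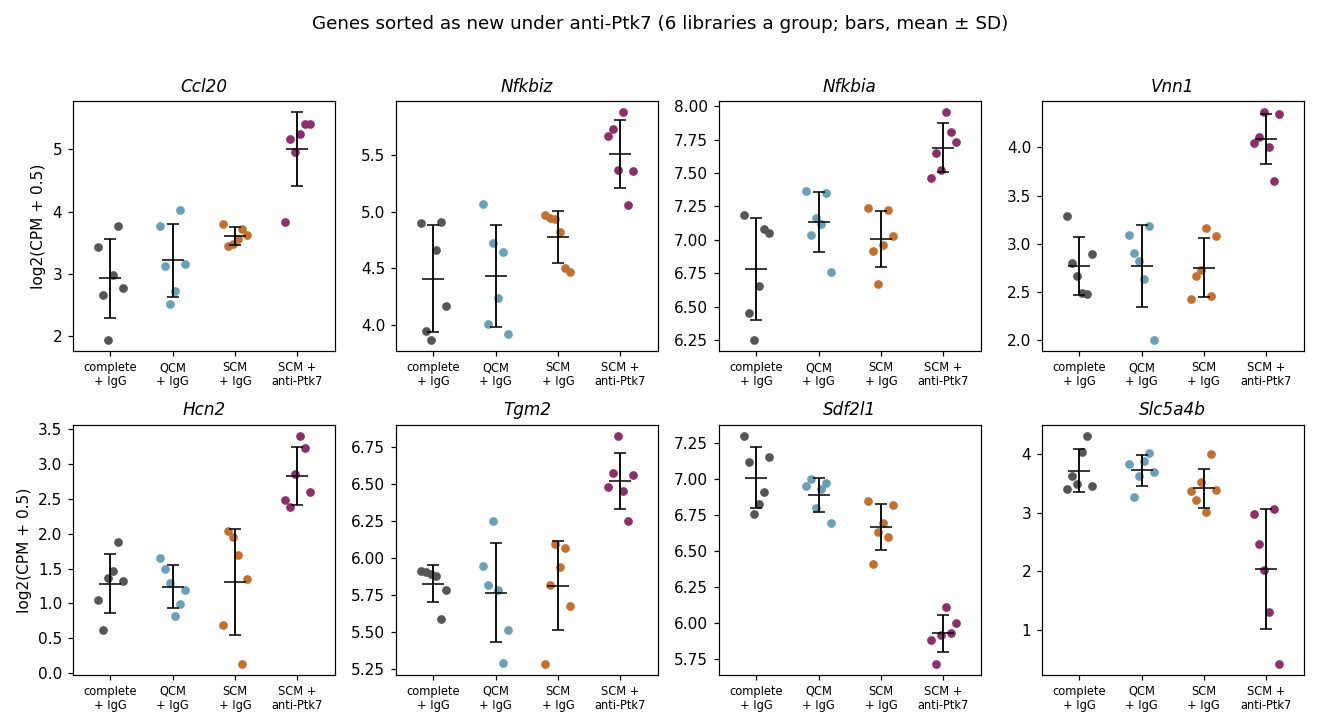
Levels of 8 new genes as log2(CPM + 0.5) in each of 6 libraries of 4 groups (points), with mean and SD (bars). The 6 rising genes lie higher in every SCM + anti-Ptk7 library than in any complete media library and Sdf2l1 and Slc5a4b lower, while the means of complete media, QCM and SCM + IgG lie closer to each other than to that of SCM + anti-Ptk7. The class requires calls of SCM + anti-Ptk7 against both complete media and SCM + IgG, so this pattern follows in part from the sorting.

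Slc16a12, Lrp1, Ppfia3 and D930016D06Rik had log2 fold changes of 1.37, 1.25, 1.17 and 0.93, and they stayed new in 12, 13, 10 and 16 of 18 fits that left out 1 library. Of the 25 new genes given with values here, 14 stayed new in all 18 fits. In all, 22 of the 34 new higher genes had libraries that did not overlap with complete media. The same held for 314 of the 700 called higher genes and for 6.32% of all genes tested. Of the 34, 20 were also higher than in QCM, against 1.92% of all genes tested. The class was sorted on the same SCM + anti-Ptk7 libraries, so both counts follow in part from the sorting.

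The new lower genes included hormones of enteroendocrine cells, the rare secretory cells that release gut peptides. Of 16 tested genes of this list, 4 were lower and 1, Pyy, was higher, and without replicate 4 the counts were 4 and 0. Gip, the incretin of K cells, stood at 32.1, 42.9 and 48.5 CPM in complete media, 36.5, 45.8 and 58.5 CPM in SCM + IgG and 11.5, 21.5 and 34.6 CPM in SCM + anti-Ptk7. The groups overlapped slightly, and the log2 fold change was −0.93 ± 0.21 against complete media and −1.06 ± 0.21 within SCM (edgeR adjusted p = 0.00239 and 0.00368). Sct, secretin, had medians of 9.67, 11.2 and 6.18 CPM in the same order, with −0.59 ± 0.16 and −0.75 ± 0.16 (edgeR adjusted p = 0.012 and 0.00588). The change lies at the fold threshold and was under it without SCM + anti-Ptk7 replicate 1, 3 or 6 or complete media replicate 2, 4 or 6 (log2 fold changes of −0.58 to −0.53) and with the replicate block (−0.57).

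Gcg, the glucagon and GLP-1 precursor, went from 125.1, 184.7 and 217.6 CPM to 76.5, 107.6 and 140.8 CPM (−0.70 ± 0.13, edgeR adjusted p = 0.000169), and Nts, neurotensin, from 3.67, 7.17 and 10.5 CPM to 0.653, 2.78 and 4.13 CPM (−1.44 ± 0.40, edgeR adjusted p = 0.0143). Both were not sorted, with differences within SCM of −0.38 ± 0.13 and −1.33 ± 0.40 (edgeR adjusted p = 0.0976 and 0.0605), of which that of Nts passed with the block (edgeR adjusted p = 0.0425). Cck, cholecystokinin, was higher in SCM + IgG than in complete media by 0.56, which did not reach the fold threshold, and lower with the antibody within SCM (−0.87 ± 0.13, edgeR adjusted p = 0.00012), so that its 37.6 to 59.0 CPM overlapped the 56.7 to 76.6 CPM of complete media. Against QCM, 5 genes of the list were lower and none higher.

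**Figure D5:**
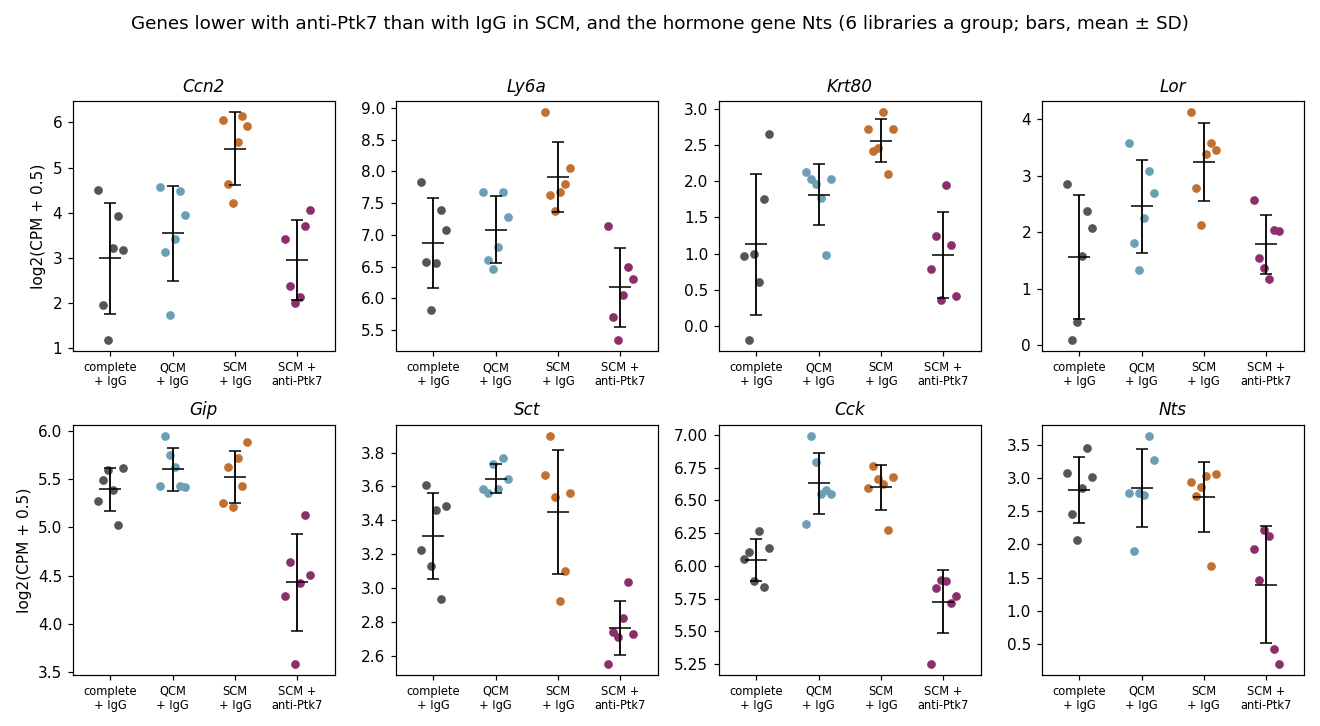
Levels of 7 genes that were lower with anti-Ptk7 than with IgG in SCM, and of Nts, as log2(CPM + 0.5) in each of 6 libraries of 4 groups (points), with mean and SD (bars). For Ccn2, Ly6a, Krt80 and Lor the SCM + anti-Ptk7 libraries overlap those of complete media; for Gip, Sct, Cck and Nts their mean is below the means of all 3 other groups.

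Of 15 tested genes of the unfolded protein and integrated stress response, Sdf2l1 and Chac1 were lower, both new, and none was higher (2 and 0 without replicate 4). Sdf2l1, a luminal protein of the endoplasmic reticulum, went from 107.5, 129.1 and 157.0 CPM in complete media to 52.2, 60.4 and 68.7 CPM, below all SCM + IgG libraries (84.8 to 114.6 CPM). Its log2 fold change of −1.10 ± 0.10 (edgeR adjusted p = 5.31e-10) stood beside −0.75 ± 0.10 within SCM and −0.35 ± 0.10 in SCM + IgG, the last under the fold threshold. Chac1, which degrades glutathione and is induced by ATF4, went from 17.6, 22.5 and 25 CPM to 7.36, 12.2 and 21.9 CPM (−0.77 ± 0.19, edgeR adjusted p = 0.00504). The other 13 genes were not called, and the median of the list was −0.38.

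Slc5a4b, a member of the sodium-glucose carrier family, showed the largest new fall by the naming rule, from 10.1, 11.3 and 19.3 CPM to 0.839, 4.28 and 7.88 CPM (−1.55 ± 0.33, edgeR adjusted p = 0.00162). Its difference within SCM (−1.22 ± 0.33, edgeR adjusted p = 0.0382) was lost without replicate 2, 3, 4 or 6 of SCM + anti-Ptk7 or replicate 1, 3, 5 or 6 of SCM + IgG. Pnliprp2, a lipase related to pancreatic lipase, went from 26.1, 33.4 and 62.0 CPM to 11, 18.9 and 21.6 CPM (−1.11 ± 0.19, edgeR adjusted p = 0.000104). Lrrc51, Klhl26, Tmem203, Isoc2b, Nr4a2 and Mrpl54 fell by smaller amounts, between −1.09 and −0.59 on the log2 scale, and Klhl26, Isoc2b, Nr4a2 and Mrpl54 stayed new in 17, 16, 15 and 12 of 18 such fits. Of the 30 new lower genes, 10 had a mean under 2 CPM, where counting error is large. Lower levels than in QCM were called for 26 of them, against 1.14% of all genes tested. This count too follows in part from the sorting on the same SCM + anti-Ptk7 libraries.

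Canonical Wnt, interferon and immediate early genes changed in part. Of 16 tested canonical Wnt targets, 4 were higher and 1 lower (2 and 1 without replicate 4), and none of these was kept or new. Tcf7, a transcription factor and target of the pathway, went from 19.2, 23.8 and 27.8 CPM to 32.2, 38.8 and 44.4 CPM (0.72 ± 0.15, edgeR adjusted p = 0.00103), with 25.3 to 36.3 CPM in SCM + IgG. Of 16 tested interferon and antigen presentation genes, 3 were higher and 1 lower (2 and 0 without replicate 4). Irf1, a transcription factor of this response, went from 5.36, 10.4 and 16.7 CPM to 28.3, 37.1 and 41.7 CPM, without overlap (1.78 ± 0.19, edgeR adjusted p = 1.64e-08), and was kept. Of 16 immediate early genes, Fos (1.38 ± 0.35, kept) and Jun (0.80 ± 0.16, not sorted) were higher (2 genes without replicate 4, and 4 in the blocked fit). Within SCM, Fosl1 (−0.74 ± 0.38) and Ier3 (−0.84 ± 0.29) did not pass and were lower with the antibody when blocked (−0.93 ± 0.17 and −0.83 ± 0.13, edgeR adjusted p = 0.000487 and 6.79e-05). For none of Tcf7, Irf1, Fos and Jun was a difference between antibody and IgG called.

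The classes were described further by promoter sequence. RefSeq promoter windows (GRCm38.p6, 250 bases before to 50 after the start of a gene) were found for 286 of the 402 kept higher and 23 of the 34 new higher genes. The TEAD core GGAATG, on either strand, was present in 59 kept higher genes (20.6%), in 5 new higher genes (21.7%), in 8 of 44 kept lower genes (18.2%), in 3 of 25 new lower genes (12%) and in 14.6% of the 10482 genes tested with a window. The AP-1 motif TGANTCA was present in 40 kept higher genes (14%), 7 kept lower genes (15.9%), 2 new lower genes (8%), none of the 23 new higher genes and 6.43% of all. The HNF4 motif CAAAGTCCA and the HNF1 motif TTAATNATT were in 3 and 6 kept higher genes (1.05% and 2.10%) and in 0.582% and 1.11% of all. Among kept lower genes, 3 held the HNF1 motif (6.82%) and none the HNF4 motif, among new lower genes 1 and 0 did, and no new higher gene held either. These shares are a description without a test, and a match in a window does not show that a factor binds there. The windows of the highest-ranked genes with a TEAD core are shown 5′ to 3′ on the strand of the gene, with each match on either strand in capitals, to place the motif relative to the start of a kept and of a new gene.
Ctrb1, kept, chr8:111690961-111691260, minus strand: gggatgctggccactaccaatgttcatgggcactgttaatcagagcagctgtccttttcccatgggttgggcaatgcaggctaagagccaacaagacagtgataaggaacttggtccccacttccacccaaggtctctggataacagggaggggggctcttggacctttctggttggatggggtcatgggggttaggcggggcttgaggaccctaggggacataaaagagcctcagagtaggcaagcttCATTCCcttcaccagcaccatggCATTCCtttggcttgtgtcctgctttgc
Slc34a2, kept, chr5:53049103-53049402, plus strand: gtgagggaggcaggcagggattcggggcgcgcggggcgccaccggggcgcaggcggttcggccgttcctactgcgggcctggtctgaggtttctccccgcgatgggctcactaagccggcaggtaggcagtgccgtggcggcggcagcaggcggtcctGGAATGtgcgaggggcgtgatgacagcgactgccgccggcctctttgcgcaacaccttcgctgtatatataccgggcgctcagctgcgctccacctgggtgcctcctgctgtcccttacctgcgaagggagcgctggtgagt
Ccl20, new, chr1:83116516-83116815, plus strand: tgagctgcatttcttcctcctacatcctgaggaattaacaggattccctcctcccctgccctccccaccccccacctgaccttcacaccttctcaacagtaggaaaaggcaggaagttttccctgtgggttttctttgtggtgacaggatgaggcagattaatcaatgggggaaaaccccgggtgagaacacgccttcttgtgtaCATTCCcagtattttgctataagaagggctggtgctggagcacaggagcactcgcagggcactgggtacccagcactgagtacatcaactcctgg
Renbp, new, chrX:73930801-73931100, minus strand: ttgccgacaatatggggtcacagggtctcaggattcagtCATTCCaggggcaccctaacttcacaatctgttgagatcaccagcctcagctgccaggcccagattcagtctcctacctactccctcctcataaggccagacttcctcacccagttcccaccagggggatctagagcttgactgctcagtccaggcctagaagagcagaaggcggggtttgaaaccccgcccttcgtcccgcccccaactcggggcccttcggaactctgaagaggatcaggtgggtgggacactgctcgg

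Ctrb1, a chymotrypsinogen gene, holds 2 matches, at positions 250 and 273 of its window, and rose from 3.85, 10.8 and 15.3 CPM to 32.5, 60.1 and 81.5 CPM (2.57 ± 0.31, edgeR adjusted p = 2.29e-07). The RefSeq window of Slc34a2 lies inside the gene as annotated in GENCODE (chromosome 5, 53038081 to 53071664), so that it marks another start than the first base of that annotation. Slc34a2, a phosphate carrier, holds 1 match at position 159 and rose from 9.42, 12.7 and 16.6 CPM to 50.6, 67.6 and 74.9 CPM (2.34 ± 0.16, edgeR adjusted p = 7.44e-13). In Ccl20 the single match lies at position 206, before the start of the gene. Renbp, which encodes the renin binding protein, holds its match at position 40 and rose from 2.58, 5.01 and 6.86 CPM to 7.29, 8.75 and 11.9 CPM (0.86 ± 0.20, edgeR adjusted p = 0.0033).

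The longest annotated transcript had a median length of 2959 bases over all genes tested, 2739 in the kept higher, 2976 in the new higher and 1984 in the 30 new lower genes. The median GC content was 49.6% over all genes tested and 51.3%, 50.5% and 52.1% in these classes. The new lower genes had a median level of 5.00 CPM, against 21.5 CPM over all genes tested, and the part of length and level in this class was not tested.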

How the data were processed

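RNA was measured by Smart-Seq v4 and Nextera XT libraries of organoid cultures, sequenced as single-end reads. The authors aligned reads with GSNAP within HTSeqGenie to the mouse genome (NCBI Build 38), and deposited whole-number counts per gene, without normalization. Their methods name coding sequence as the counted part, but the files also hold counts of genes not annotated as protein coding (80.4% of genes tested were), so the counted part is not known for those. The annotation release and the use of strand are not given in the sources used here. From these counts, genes were kept by filterByExpr, scaled by TMM and tested with edgeR 4.0.16 (quasi-likelihood test, R 4.3.3) on group means over all 36 libraries, with Benjamini-Hochberg adjustment. A call needed an adjusted p below 0.05 with levels differing more than 1.5 times. CPM are counts scaled to the library size after TMM, except in the marker sums, which used the library total alone.

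Library totals limit the precision of genes under about 2 CPM. Named genes were Ptk7, list members, the 10 higher and 10 lower genes of largest change without overlap and with a mean log2 CPM over 1, and under the same limits 5 and 5 among kept and 10 and 10 among new genes (9 new lower genes met them). The comparison, lists and members were chosen with earlier results of these data known. Alternatives were voom with limma 3.58.1, DESeq2 1.42.0, other scalings, filters and fold limits, a replicate block and leaving out each library. The 12 libraries with Wnt5a entered the filter, the scaling and the fit for the spread, and were not compared here. The result of 1 gene is not reported here.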

Additional observations from a re-analysis of the deposited data

Results flagged for a closer look

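Within groups of 6 libraries, 13 of 206 groups of values examined held 1 library far from the other 5 by Dixon's criterion. Chance flags about 1 in 20 groups, or 10.3 of 206. Replicate 4 of SCM + anti-Ptk7 lay at −79.2 on PC2, where the other 5 lay between 2.31 and 32.5. On the log2(CPM + 0.5) scale the same library had Ccdc3 at 3.09 (others 4.24 to 4.41), the overlapping Gm26776 at 2.51 (3.46 to 4.02) and Ace at 1.58 (2.37 to 2.83). Replicate 1 of SCM + anti-Ptk7 had Ccl20 at 3.84 (4.95 to 5.41) and Cck at 5.25 (5.72 to 5.89). Both Ccdc3 and Ccl20 were thus lowest, within their group, in a library that still lay above all complete media libraries.

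In complete media, replicate 1 had Mycn at −1 (0.503 to 1.19), which is a count of 0. Replicate 5 had Ace at 3.37 (4.06 to 4.30) and Ctse at 0.67 (−1 to −0.497). Replicate 2 had Tgfb1 at −0.751 (0.503 to 1.25) and Klhl26 at 5.74 (5.16 to 5.36). Replicate 3 had Id1 at 3.87 (3.09 to 3.24) and Usp2 at 4.66 (3.86 to 4.13).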

How the results depend on the processing

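Main counts were 700 higher and 208 lower genes, 402 and 67 kept, and 34 and 30 new, and no named gene changed direction past the threshold under the alternatives run. With voom and limma on quantile-normalized values, 453 genes were higher, 251 higher and 115 lower genes were kept. DESeq2 gave 60 new higher genes, and a minimum of 10 counts in every library gave 15 new lower genes, with 17 of the 30 still tested. A fold change over 2 gave 392 and 81 genes, 253 and 18 kept, and 8 and 17 new. Without a fold limit there were 1060 and 815 genes, 300 lower kept, and 83 and 90 new. The glmTreat test against a fold of 1.5 gave 155 and 21 genes, 96 and 5 kept, and 2 and 5 new. Without SCM + anti-Ptk7 replicate 4 and SCM + IgG replicate 1 together, 20 higher genes were new. Leaving out 1 library at a time gave 538 to 721 higher and 177 to 249 lower genes, 285 to 457 and 53 to 76 kept, and 25 to 43 and 24 to 38 new. With voom after TMM, Smad6, Fos, Krt18 and Sct also lost their calls, and Lgr5 did on quantile-normalized values. Fitting only the groups compared gave 596 and 183 genes, 364 and 70 kept, and 23 and 24 new; Kcnh3 and Isoc2b lost their calls and Thbs1 gained one. Krt18 lost its call with DESeq2, Krt18 and Kcnh3 without a filter, and Sct and Mrpl54 with the minimum of 10 counts. Of 98 genes followed, 26 lost their calls at a fold over 2 and 44 under glmTreat. The cause of these shifts was not tested, beyond the smaller or larger number of genes that a fold limit admits. With the replicate number as a block, 54 higher genes were new and all 34 of the main ones were among them; Ly6a (−0.72) and Thbs1 (0.77) then passed and Sct (−0.57) did not. Same-numbered libraries correlated in their deviations between −0.0241 and 0.209, 2 of 6 pairs were over 0.1 and 4 of 6 SCM + anti-Ptk7 libraries correlated best with their own number. This does not meet the rule set for pairing (every pair over 0.1), and whether the numbers pair the libraries was not settled. Single genes such as Clu and Ly6a moved one way in 6 of 6 same-numbered pairs. In complete media, QCM, SCM + IgG and SCM + anti-Ptk7 alike, Clu and Krt20 were highest in replicate 1 and lowest in replicate 3. The block lowered the SE of the Clu difference within SCM from 0.40 to 0.09. These genes were chosen after their values were seen. Under the block, 681 of the 700 higher and 205 of the 208 lower genes remained called.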
